A study of Bombyx mori with 9 samples.

Results

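FIBH, Fib-l and P25 are the genes of the fibroin core of silkworm silk, and their counts were followed through 9 silk gland libraries of Bombyx mori. They were taken by these gene IDs from a table of 16674 genes, and all 3 were among the 7610 genes with enough counts to be tested. Each library came from the dissected silk glands of a larva on day 3 of the 5th instar, the last larval stage. The strain LAT51 was reared at the site CAR in Benguet, and the strains MO204 and DMMMSU119 were reared at the site TCMO in Misamis Oriental, with 3 libraries each. Libraries are named by strain and replicate number, and DMMMSU119 is shortened to DMMMSU there, with the numbers 0, 2 and 4. No strain was sampled at both sites, so for LAT51 the site and the strain cannot be told apart. The study gave no treatment other than rearing at the site, and CAR is the cooler of the sites.

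Fibroin is the fibrous protein of the silk thread. FIBH encodes the heavy chain, a long repetitive protein that forms the crystalline part of the thread. Fib-l encodes the light chain, which is joined to the heavy chain by a disulfide bond, and P25 encodes a glycoprotein that associates with the joined chains and helps them to be secreted. The genes are transcribed in the posterior silk gland and are at their most active in the last larval stage. The middle silk gland makes the sericins, the glue proteins that coat the thread. Whole glands were extracted, so a lower level of a gene in a library cannot be told apart from fewer posterior gland cells in it.

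The libraries held 4527847 to 11641130 counts. The 3 DMMMSU119 libraries had TMM factors, edgeR's correction for library composition, of 0.422 to 0.590, while the other 6 libraries had factors of 1.27 to 1.53. A choice of scaling between libraries therefore weighs on every comparison with DMMMSU119. For that reason the genes are given first as a share of counts, then as ratios within a library, which need no scaling, and then as scaled levels.

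FIBH took up a larger share of the counts in DMMMSU119 than in either of the other strains. In LAT51 it held 5.49%, 4.68% and 4.53% of the counts in LAT51-1, LAT51-2 and LAT51-4. In MO204 it held 6.82%, 11.5% and 8.39% in MO204-1, MO204-3 and MO204-4. In DMMMSU119 it held 16.4% in DMMMSU-0, 25.8% in DMMMSU-2 and 24.9% in DMMMSU-4. No library of a strain overlapped with another strain, and DMMMSU-0 was the lowest of its strain. The strain means were 4.90% ± 0.514, 8.89% ± 2.36 and 22.3% ± 5.16 (SD, n = 3). The 3 strains differed by an exact permutation test over all 1680 assignments of the libraries to strains (p = 0.00357, the smallest these assignments can give, adjusted p = 0.00714 over 4 shares). FIBH is repetitive, and the part of reads that map to several places in these values was not tested.

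The light chain gene Fib-l differed less between the strains. Its share was 1.81%, 1.96% and 1.86% in the LAT51 libraries, in the order given above. It was 2.27%, 2.45% and 1.84% in the MO204 libraries and 2.36%, 3.41% and 3.92% in the DMMMSU119 libraries. MO204-4 lay within the LAT51 range, and DMMMSU-0 lay between MO204-1 and MO204-3. As a share of all counts, MO204 thus overlapped with both other strains. The LAT51 libraries lay close together, with a mean of 1.87% ± 0.0767 (SD, n = 3), against 2.19% ± 0.311 in MO204 and 3.23% ± 0.796 in DMMMSU119. The exact permutation test over the 3 strains gave p = 0.0464 (adjusted p = 0.0464). FIBH is part of the denominator and was highest in DMMMSU119, so the Fib-l share depends on it. With counts outside the 3 fibroin genes as denominator, the exact permutation test gave p = 0.00714 (adjusted p = 0.00952). With the 10 genes of highest mean share left out of the denominator, the exact permutation test gave p = 0.0464 (adjusted p = 0.0464).

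P25 had its highest shares in DMMMSU119 as well. The values were 0.306%, 0.394% and 0.257% in LAT51, 0.263%, 0.345% and 0.160% in MO204, and 0.517%, 0.461% and 0.570% in DMMMSU119. Each DMMMSU119 library lay above the other 6, and the LAT51 and MO204 ranges overlapped. The means were 0.319% ± 0.0695, 0.256% ± 0.0927 and 0.516% ± 0.0547 (SD, n = 3), and the exact permutation test gave p = 0.0179 (adjusted p = 0.0238). P25 was the gene for which MO204 had the lowest mean, whereas LAT51 had the lowest mean for FIBH and Fib-l. LAT51 and MO204 did not differ beyond their spread for P25 (exact permutation p = 0.5) or Fib-l (p = 0.3). For FIBH they did not overlap, and the p of 0.1 is the smallest that 3 against 3 libraries allow.

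**Figure D1:**
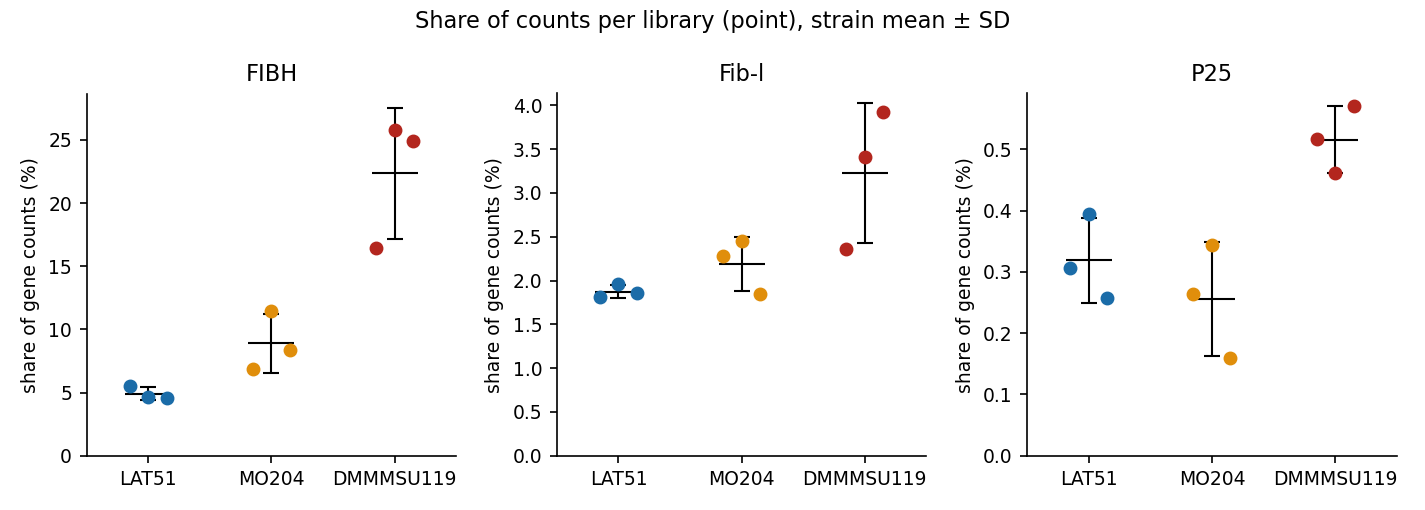
Share of gene counts (%, linear axes that start at 0) for FIBH, Fib-l and P25, with a point per library and bars for the strain mean ± SD (n = 3). The DMMMSU119 points of FIBH, from 16.4% to 25.8%, lie above the MO204 points, from 6.82% to 11.5%, and these above the LAT51 points, while Fib-l of MO204 overlaps with both other strains.

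Together the fibroin genes held 6.65% to 7.60% of the counts in LAT51, 9.36% to 14.2% in MO204 and 19.3% to 29.6% in DMMMSU119. Wilson 95% intervals of these single-library shares were at most 0.0589 percentage points wide for FIBH, so counting error was small beside the spread between larvae. The widest interval was 0.0282 points for Fib-l and 0.0114 points for P25. By number of counts, which grows with transcript length as well as with expression, FIBH stood 2nd to Ser2 in each LAT51 library and 1st in the other 6 libraries. Ser2 encodes a sericin that is made in the anterior part of the middle gland and is scarce in the cocoon. Fib-l stood between 2nd and 7th, and P25 between 26th and 127th, with its lowest place in MO204-4. The 10 genes with the highest mean share were FIBH at 12.05%, Ser2 at 4.496%, Fib-l at 2.43%, LOC119630857 at 2.08%, LOC110386648 at 2.06%, LOC101740082 at 1.81%, LOC119630858 at 1.79%, EF1a at 1.08%, LOC119630861 at 0.951% and LOC100302629 at 0.946%. LOC101740082 is listed with the synonym Ser1, the main sericin of the middle gland.

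The share of FIBH differed more between strains than that of its partner chain. There were 3.04, 2.39 and 2.44 FIBH counts per Fib-l count in LAT51, 3.00, 4.68 and 4.55 in MO204, and 6.96, 7.56 and 6.35 in DMMMSU119. Each DMMMSU119 library lay above the other 6, and MO204-1 lay within the LAT51 range. The means were 2.62 ± 0.358, 4.08 ± 0.935 and 6.95 ± 0.604 (SD, n = 3). On the log2 scale DMMMSU119 was higher than LAT51 by 1.41 and higher than MO204 by 0.80, and the 3 strains differed (exact permutation p = 0.00714, adjusted p = 0.0214 over 3 ratios). As these are counts within a library, the difference does not depend on how the libraries were scaled. Transcript length cancels between libraries only if the strains share it, and lengths were not analysed here. Whether reads of the repetitive FIBH were counted alike in each strain was not tested. The values are not molecules of heavy chain mRNA per light chain mRNA.

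Relative to FIBH, P25 was highest in LAT51. There were 0.0557, 0.0842 and 0.0568 P25 counts per FIBH count in LAT51, 0.0386, 0.0301 and 0.0190 in MO204, and 0.0315, 0.0179 and 0.0229 in DMMMSU119. The LAT51 libraries lay above the other 6, and MO204 and DMMMSU119 overlapped. The log2 ratio was lower in DMMMSU119 than in LAT51 (difference -1.46), and the strains differed by the exact permutation test (p = 0.0179, adjusted p = 0.0268). Without LAT51-2, the library with the highest value, the difference was -1.26 and the adjusted p of the exact permutation test was 0.134.

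Between P25 and the light chain gene the ratios overlapped across the strains. They were 0.169, 0.201 and 0.139 P25 counts per Fib-l count in LAT51, 0.116, 0.141 and 0.0865 in MO204, and 0.219, 0.135 and 0.145 in DMMMSU119. DMMMSU-0 had the highest value and MO204-4 the lowest. The means of LAT51 and DMMMSU119 were 0.170 ± 0.0314 and 0.167 ± 0.0457 (SD, n = 3), and that of MO204 was 0.114 ± 0.0271. The exact permutation test over the strains gave p = 0.157 (adjusted p = 0.157), which does not show that the ratio was the same in them.

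**Figure D2:**
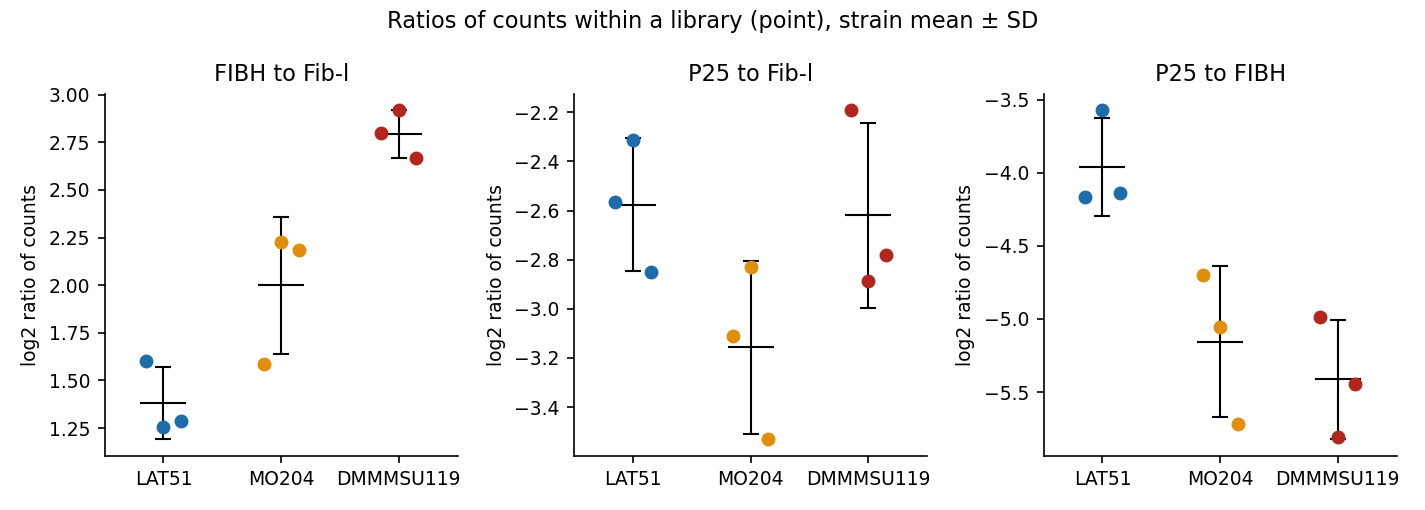
Log2 ratio of counts within a library for the 3 pairs of fibroin genes, with a point per library and bars for the strain mean ± SD (n = 3, axes do not start at 0). FIBH to Fib-l is highest in DMMMSU119, P25 to FIBH is highest in LAT51, and the ranges of LAT51 and DMMMSU119 overlap for P25 to Fib-l.

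Scaled to TMM CPM (counts relative to the library size after the composition factor), FIBH stood at 35777, 35084 and 35829 in the LAT51 libraries. It stood at 44625, 85891 and 63557 in MO204 and at 277883, 610068 and 432645 in DMMMSU119. The LAT51 values lay within a narrow range, and the spread was widest in DMMMSU119. In edgeR's quasi-likelihood test FIBH was lower in LAT51 than in DMMMSU119 by 12.4-fold (log2 fold change -3.63, SE 0.382, adjusted p = 0.000831) and lower in MO204 than in DMMMSU119 by 6.80-fold (-2.77, SE 0.367, adjusted p = 0.00284). Between LAT51 and MO204 the log2 fold change was -0.86 (SE 0.347, adjusted p = 0.318), which did not pass the threshold of 0.1 (unadjusted p = 0.0324).

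The TMM CPM of Fib-l was 11786, 14670 and 14679 in LAT51, 14882, 18353 and 13971 in MO204, and 39952, 80738 and 68143 in DMMMSU119. On this scale the 3 DMMMSU119 libraries lay above the other 6. Fib-l was lower in LAT51 than in DMMMSU119 by 4.59-fold (log2 fold change -2.20, SE 0.323, adjusted p = 0.00277 in edgeR) and lower in MO204 than in DMMMSU119 by 4.0-fold (SE 0.321 on the log2 scale, adjusted p = 0.00588). Its log2 fold change between LAT51 and MO204 was -0.20 (SE 0.309, adjusted p = 0.916).

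P25 stood at 1993, 2955 and 2034 TMM CPM in LAT51, 1721, 2584 and 1209 in MO204, and 8750, 10914 and 9914 in DMMMSU119. The DMMMSU119 libraries again lay above the rest, and for this gene they had the smallest spread relative to the mean (9859 ± 1083, SD, n = 3). P25 was lower in LAT51 than in DMMMSU119 by 4.24-fold (log2 fold change -2.08, SE 0.349, adjusted p = 0.00456 in edgeR) and lower in MO204 than in DMMMSU119 by 5.36-fold (-2.42, SE 0.354, adjusted p = 0.00401). Between LAT51 and MO204 its log2 fold change was 0.34 (SE 0.336, adjusted p = 0.828).

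Calls were common in the contrasts with DMMMSU119, so the 3 of 3 fibroin genes called in each are to be read against that background. Of the 7610 genes tested, 38.0% were called between LAT51 and DMMMSU119, with 18.2% higher and 19.8% lower in LAT51. Between MO204 and DMMMSU119, 33.0% were called, with 16.3% higher and 16.7% lower in MO204. Between LAT51 and MO204, 3.07% were called (1.51% higher and 1.56% lower in LAT51), and no fibroin gene was. The size of the change set the genes toward one end of the range. In LAT51 vs. DMMMSU119, 5.41% of tested genes had a lower log2 fold change than FIBH, 10.01% than Fib-l and 10.5% than P25. In MO204 vs. DMMMSU119 these figures were 5.45%, 9.11% and 6.75%. Both contrasts share the DMMMSU119 libraries. The spread among larvae of a strain was below that of the median gene, with a pooled SD of 0.427 for FIBH, 0.345 for Fib-l and 0.378 for P25 on the log2 CPM scale, against a median of 0.480 over the tested genes. By mean log2 CPM these genes ranked 1, 3 and 49, and their spread was not compared with that of genes of like level.

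**Figure D3:**
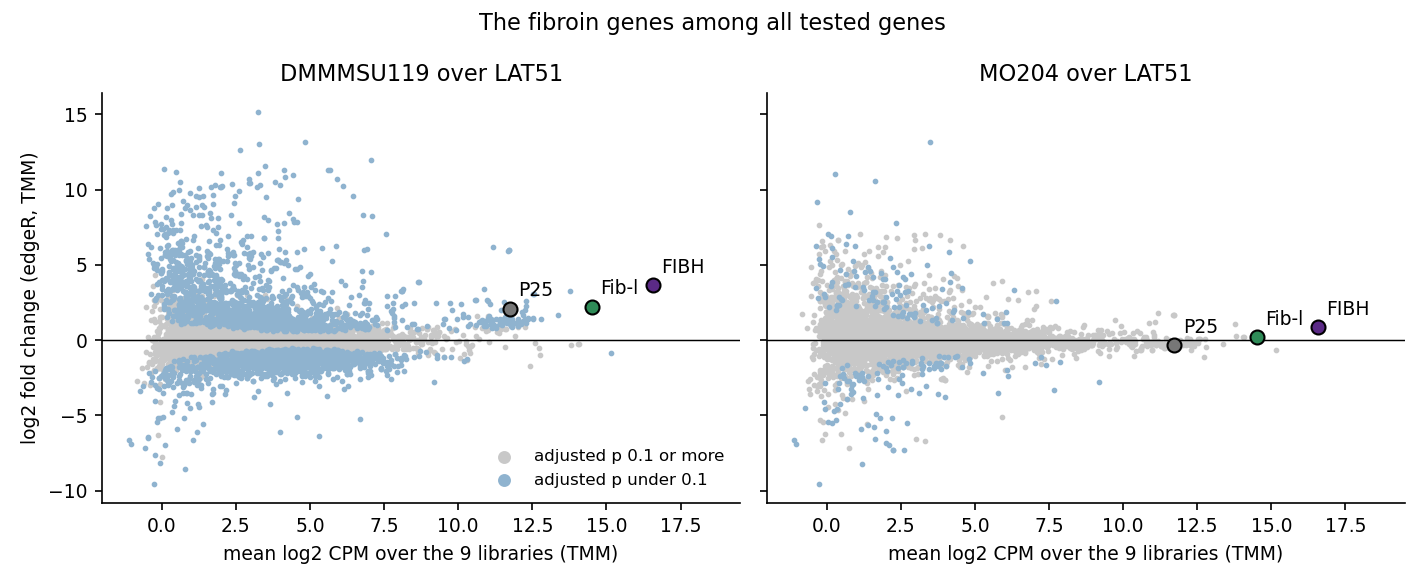
Log2 fold change from edgeR (TMM) against mean log2 CPM over the 9 libraries for the 7610 genes tested, with genes under an adjusted p of 0.1 in blue and the others in grey. FIBH, Fib-l and P25 are marked and lie at the high end of the level axis. All 3 lie above 0 and were called in DMMMSU119 over LAT51, and none was called in MO204 over LAT51.

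The direction of the contrasts with DMMMSU119 held for each fibroin gene under 6 scalings, but the size did not. The fold between LAT51 and DMMMSU119 ranged from 4.56 to 12.5 for FIBH, from 1.72 to 4.62 for Fib-l and from 1.62 to 4.27 for P25. Between MO204 and DMMMSU119 it ranged from 2.44 to 6.998 for FIBH, from 1.42 to 4.11 for Fib-l and from 1.96 to 5.51 for P25. Under each scaling the genes passed edgeR's test in both contrasts, with the highest adjusted p at 0.0649, for P25 in LAT51 vs. DMMMSU119. The smaller values came with scalings by library size, by library size without the fibroin genes, and by the counts of 77 ribosomal protein genes. With library size alone the median log2 fold change of all tested genes moved to 1.39 in LAT51 vs. DMMMSU119 and 1.42 in MO204 vs. DMMMSU119. Of the genes called, 47.9% and 49.3% were higher in the first strain with TMM, and 89.9% and 93.1% with library size alone.

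**Figure D4:**
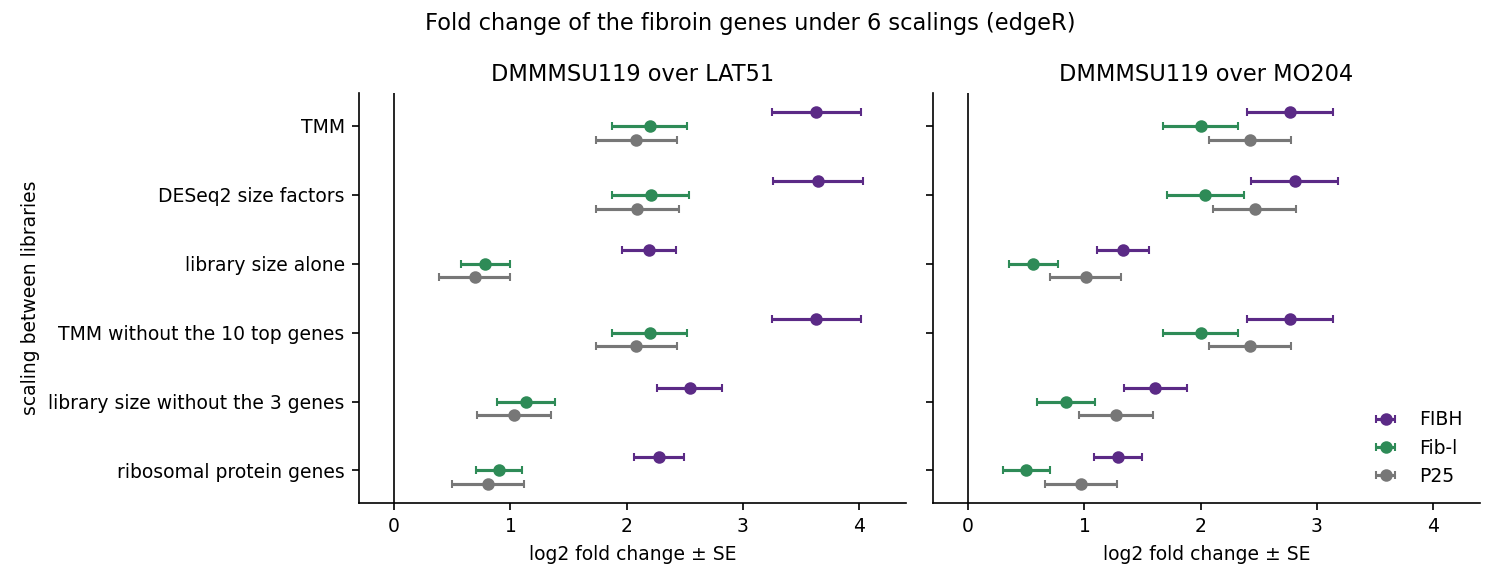
Log2 fold change ± SE of FIBH, Fib-l and P25 in DMMMSU119 over LAT51 and over MO204 under 6 scalings between libraries (edgeR). All points lie above 0. FIBH in DMMMSU119 over LAT51 is the highest, and library size and ribosomal protein scaling give smaller values than TMM.

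The libraries were also grouped by site. With the 3 CAR libraries set against the 6 TCMO libraries, edgeR called no fibroin gene, although FIBH had an unadjusted p of 0.0168. The log2 fold change of CAR over TCMO was -2.83 for FIBH (SE 0.989, adjusted p = 0.212 in edgeR), -1.52 for Fib-l (SE 0.711, adjusted p = 0.336) and -1.33 for P25 (SE 0.775, adjusted p = 0.434). In this contrast 1.48% of the tested genes were called, 0.710% higher and 0.775% lower in CAR. The TCMO group joins MO204 and DMMMSU119, which differed in all 3 genes at the same site. With 1 mean per strain and the mean of the TCMO strains as the reference, edgeR gave FIBH a log2 fold change of -2.25 (adjusted p = 0.00667) and Fib-l of -1.20 (adjusted p = 0.0390), while P25 was not called (-0.87, adjusted p = 0.103). DESeq2, with the sites as groups, called FIBH as well (-2.84, adjusted p = 0.0106) but not Fib-l (adjusted p = 0.139) or P25 (adjusted p = 0.309).

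The sericin genes, which code for the coat of the thread, did not all move with fibroin. Ser2 held 702674, 581132 and 290294 counts in the LAT51 libraries, 353050, 200646 and 389611 in MO204, and 115928, 137889 and 114869 in DMMMSU119. It was higher in LAT51 than in DMMMSU119 (log2 fold change 0.86, adjusted p = 0.0882 in edgeR), the opposite of the fibroin genes, under each of the 6 scalings. Between MO204 and DMMMSU119 its log2 fold change was 0.20 (adjusted p = 0.697), and it was called higher in MO204 under 3 of 6 scalings (1.60 with library size alone, adjusted p = 0.00179). FIBH counts per Ser2 count were 0.719 ± 0.214 in LAT51, 1.97 ± 0.596 in MO204 and 15.7 ± 6.30 in DMMMSU119 (SD, n = 3).

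Ser1 (LOC101740082) went with fibroin in the contrast of LAT51 with DMMMSU119. It had 47173, 27610 and 66685 counts in LAT51, 117088, 47724 and 206182 in MO204, and 168749, 349228 and 207576 in DMMMSU119. It was lower in LAT51 than in DMMMSU119 (log2 fold change -3.24, adjusted p = 0.0136) under each scaling. In MO204 vs. DMMMSU119 the log2 fold change was -2.15 (adjusted p = 0.0520), and Ser1 passed the test under 3 of 6 scalings. FIBH counts per Ser1 count overlapped between the strains, at 10.1 ± 8.62, 6.43 ± 4.24 and 8.12 ± 2.87.

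Ser3, a sericin of the anterior middle gland and the outer coat, had few counts outside DMMMSU119. It had 18, 46 and 57 counts in LAT51, 578, 508 and 134 in MO204, and 27516, 123509 and 102589 in DMMMSU119. Its log2 fold change was -11.94 in LAT51 vs. DMMMSU119 (adjusted p = 0.000766 in edgeR) and -8.69 in MO204 vs. DMMMSU119 (adjusted p = 0.00253). Of the 3 sericin genes, 1 was thus higher and 2 were lower in LAT51 than in DMMMSU119, with a median log2 fold change of -3.24 against 0.01 over all tested genes. In this contrast 18.2% of all tested genes were called higher and 19.8% lower in LAT51. Each fibroin and sericin gene had counts in every library.

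**Figure D5:**
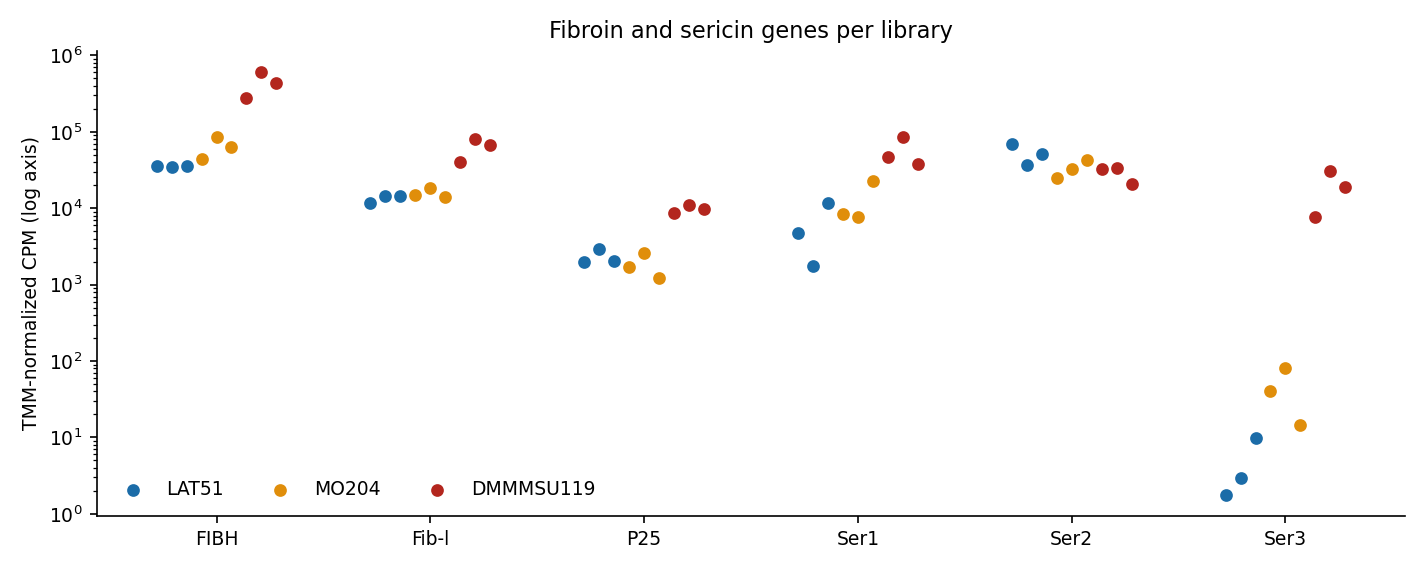
TMM CPM (log axis) of the fibroin genes and the sericin genes, with a point per library and colour for strain. DMMMSU119 is highest for FIBH, Fib-l, P25, Ser1 and Ser3, and Ser3 spans the widest range, while Ser2 is not highest in DMMMSU119.

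Genes known to act on silk gland transcription or in its hormone response held small shares of the counts, at most 0.0161% together in a library, and split in direction. Of 9 such genes in the table, 6 were tested, and of these 2 were higher and 2 were lower in LAT51 than in DMMMSU119, with the same numbers in MO204 vs. DMMMSU119. The median log2 fold changes were 0.06 and -0.41, against 0.01 and 0.03 over all tested genes. In these contrasts 18.2% and 16.3% of all tested genes were called higher in the first strain, and 19.8% and 16.7% lower. Kr-h1, an early response gene of juvenile hormone, had 9 to 50 counts in the LAT51 and MO204 libraries and 0 to 2 in DMMMSU119. It was higher in LAT51 (log2 fold change 3.62, adjusted p = 0.0133 in edgeR), as was the ecdysone response gene Br-c (1.60, adjusted p = 0.0617). The basic helix-loop-helix factor dimm was lower in LAT51 than in DMMMSU119 (-2.09, adjusted p = 0.0318), but passed under 3 of 6 scalings. The gland factor sage (-0.58, adjusted p = 0.0985) turned to 0.84 with library size alone (adjusted p = 0.0257). In MO204 vs. DMMMSU119, dimm and sage were each called lower under 3 of 6 scalings, and sage had the other sign under 3. Fmbp-1, which binds the fibroin gene, and the forkhead factor SGF1 were not called in either contrast, at 0.27 and -0.15 in LAT51 vs. DMMMSU119. Fmbp-1 passed under 3 of 6 scalings in each contrast, at 1.65 in LAT51 vs. DMMMSU119 with library size alone (adjusted p = 0.00695). Awh, MET1 and SGF3 had too few counts to be tested.

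Genes for folding and disulfide formation in the endoplasmic reticulum, the steps that join the fibroin chains, were split in direction. All 4 were tested. In LAT51 vs. DMMMSU119, 2 were higher, 1 was lower and 1 was not called, and in MO204 vs. DMMMSU119, 3 were higher and 1 was lower. Over all tested genes, 18.2% were called higher and 19.8% lower in LAT51, and 16.3% higher and 16.7% lower in MO204. The calcium-binding chaperone gene Crt (log2 fold change 1.38, adjusted p = 0.0237 in edgeR) and HSP70, listed with the synonym of the chaperone BiP (1.02, adjusted p = 0.0480), were higher in LAT51 under each scaling. Pdi, the disulfide isomerase, was at 0.34 in LAT51 vs. DMMMSU119 (adjusted p = 0.484, but 1.68 and called with library size alone) and was higher in MO204 than in DMMMSU119 (0.94, adjusted p = 0.0753). Ero1, the oxidase of Pdi, was lower in LAT51 (-0.99, adjusted p = 0.0261), and turned to 0.39 with library size alone (adjusted p = 0.254). In MO204 vs. DMMMSU119 Ero1 was at -1.02 (adjusted p = 0.0286 in edgeR). It was called lower under 3 of 6 scalings there and had the other sign under the other 3. The 4 genes together held 0.471% to 0.694% of the counts in LAT51, 0.586% to 0.632% in MO204 and 0.0724% to 0.160% in DMMMSU119.

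Most fat body marker genes were higher in DMMMSU119 as well. Over all tested genes, 19.8% were called lower in LAT51 and 16.7% lower in MO204 than in DMMMSU119. Of 9 fat body marker genes, 8 were called lower in LAT51 and 6 lower in MO204. Their summed share was 0.00177% to 0.0227% in LAT51, 0.00982% to 0.0949% in MO204 and 0.199% to 5.00% in DMMMSU119, lowest in DMMMSU-4 and highest in DMMMSU-0, and the vitellogenin gene VG, the exception in LAT51 vs. DMMMSU119 (log2 fold change 2.87, adjusted p = 0.133 in edgeR), had no counts in MO204-4 and DMMMSU-4. The 3 muscle genes held 0.000129% to 0.000672%, 0.00304% to 0.0727% and 0.000633% to 0.616% of the counts, with the highest share in DMMMSU-0. DMMMSU-2 at 0.000757% and DMMMSU-4 at 0.000633% lay below each MO204 library, and DMMMSU-4 lay within the LAT51 range. Both tested muscle genes were lower in LAT51 than in DMMMSU119, and neither was called in MO204 vs. DMMMSU119. The hemocyte genes PPO1 and PPO2 had log2 fold changes of 0.04 and 0.26 in LAT51 vs. DMMMSU119 (adjusted p = 0.952 and 0.711 in edgeR). With library size alone these were 1.34 and 1.67 (adjusted p = 0.0372 and 0.00670). Without DMMMSU-0 the log2 fold changes of LAT51 vs. DMMMSU119 were -3.85 for FIBH, -2.42 for Fib-l and -2.14 for P25, each still called, and those of MO204 vs. DMMMSU119 were -2.99, -2.22 and -2.48. DMMMSU-2 and DMMMSU-4, which stayed in, held fat body shares of 1.11% and 0.199%, above each LAT51 and MO204 library. The part of these tissues in the fibroin values was not tested.

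The genes with the most similar pattern were named by the Pearson correlation of log2 TMM CPM over the 9 libraries, which is a description without a test, as the libraries share strains and scaling factors. Among the fibroin genes r was 0.978 for FIBH and Fib-l, 0.944 for P25 and Fib-l and 0.903 for P25 and FIBH. With library size alone these were 0.897, 0.716 and 0.627. For FIBH the nearest genes were LOC119629744 (r = 0.989), LOC101745332, LOC101747054, LOC733130 and LOC101743362 (r = 0.986). For Fib-l they were LOC733130 (r = 0.990), serpin-15, LOC105842464, LOC101740768 and LOC119628611 (r = 0.987), and for LOC105842464 r was 0.416 with library size alone. For P25 they were UGT33K1 (r = 0.986), LOC732863, LOC110385783, LOC100862822 and LOC101746741 (r = 0.963). LOC733130, which was in both of the first lists, had 449, 886 and 237 counts in LAT51, 695, 453 and 504 in MO204, and 880, 1889 and 2261 in DMMMSU119. UGT33K1, named for a glycosyltransferase, had 4 to 37 counts in LAT51 and MO204 and 75 to 112 in DMMMSU119. Some named genes had few counts in LAT51 and MO204, so their r rests mainly on the step to DMMMSU119. There LOC110385783 had 0 to 3 counts, LOC119628611 0 to 5, LOC100862822 0 to 7, LOC101746741 1 to 7 and LOC101745332 1 to 12 in the LAT51 and MO204 libraries. LOC119629744, the nearest to FIBH, had 1 to 3 counts in LAT51, 18 to 32 in MO204 and 503 to 14498 in DMMMSU119.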

How the data were processed

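The 9 libraries used here came from the silk gland RNA of 9 larvae. The authors also sequenced the strain ITA, reared at CAR, and left it out because its reads were too few. The authors trimmed the reads (Trimmomatic 0.39, then fastp 0.20.0), aligned them with HISAT2 2.1.0 and counted them per gene with featureCounts 1.4.6-p5, and deposited raw counts and log2 values. The deposited log2 values equal log2 of the count divided by a DESeq2 size factor, plus 1 (largest difference 4.97e-14). How reads that fit several places were counted is not given in the sources used here. This bears on FIBH, which is repetitive, and on DMMMSU119, whose reads mapped to several loci more often than those of the other strains when the authors aligned them with STAR.

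Genes were filtered with filterByExpr and scaled with TMM, and a quasi-likelihood model with 1 mean per strain, and one with location, was fitted in edgeR 4.0.16 (R 4.3.3). P-values were adjusted by Benjamini-Hochberg over the 7610 genes tested, and an adjusted p under 0.1 was called. The SE came from the F statistic. Shares and log2 ratios were compared by two-sided exact permutation tests (3 against 3 libraries cannot go below 0.1). Intervals are Wilson 95% and cover counting error only, since reads carry no molecular identifiers. Tables and plots were made with pandas 2.3.3, scipy 1.17.1 and matplotlib 3.10.9. The tests were checked on simulated data.

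Named genes are the fibroin genes, the 5 most correlated with each, members of the lists that were called or were the most abundant, and the 10 genes that took the largest mean share. Members and lists were chosen with earlier results of these data known. Alternatives were DESeq2 1.42.0 (size factors or Wald test), limma 3.58.1 on the log2 values, library size, other filters, other samples in the fit, a block on replicate number and each library left out. Ribosomal protein scaling and the ratios to sericin genes were added after seeing the data. A gene table of the assembly ASM3026992v2, not the authors' build, gave synonyms, so no coordinates are printed. Promoter and protein sequences and transcript lengths were not analysed here.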

Additional observations from a re-analysis of the deposited data

How the results depend on the processing

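Of 150 values recomputed under alternatives other than leaving out a library, 144 kept their direction and side of the threshold, 5 newly passed, 1 no longer passed and 0 reversed. Values that passed in neither setting count as kept. The ratios on the deposited log2 values were bound to be kept, since the size factor cancels within a library. The cause of these changes was not tested, beyond what the settings change. FIBH passed in LAT51 vs. MO204 with ribosomal protein scaling (log2 fold change -0.99, adjusted p = 0.0502 in edgeR). In CAR vs. TCMO it passed with ribosomal protein scaling (-1.77), with DESeq2 (-2.84, adjusted p = 0.0106) and with the average of the TCMO strains (-2.25), where Fib-l passed too (-1.20). A replicate block ended the call of Fib-l in MO204 vs. DMMMSU119 (-2.23, adjusted p = 0.106). The replicate numbers of DMMMSU-0 and MO204-3 occur in no other library. The block therefore fits these libraries exactly, and they add nothing to the strain differences fitted with it. Same-numbered libraries are different larvae, and their deviations correlated at -0.15 to 0.23. With 3 libraries per strain these correlations cannot show whether same-numbered libraries share a batch. Other calls of the fibroin genes were kept under the block.

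Leaving out each library in turn kept 167 of 171 values. For shares and ratios the value is DMMMSU119 minus LAT51, so leaving out a MO204 library could change only its p-value. The log2 difference between DMMMSU119 and LAT51 in P25 to Fib-l ranged from -0.26 to 0.0898 (0.0898 without DMMMSU-2, 0.0881 without LAT51-2 and 0.0367 without DMMMSU-4), and that in P25 to FIBH from -1.67 to -1.26, where it lost its call without LAT51-2. The fold changes of FIBH ranged from -3.85 to -3.31 in LAT51 vs. DMMMSU119 and from -2.996 to -2.44 in MO204 vs. DMMMSU119.

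Counts of called genes moved more. LAT51 vs. MO204 had 234 called genes, and 99 without a filter, 102 with at least 10 counts, 29 with the replicate block, 476 with DESeq2 and 78 to 307 with a library left out. LAT51 vs. DMMMSU119 had 2890, and 5658 with library size, 4954 with library size without the fibroin genes, 5068 with ribosomal protein scaling, 1847 with the block and 1768 to 3201 with a library left out. MO204 vs. DMMMSU119 had 2513, and 5542, 5024, 5351, 506 and 1257 to 2823 under the same settings. CAR vs. TCMO had 113, and 62, 57 and 45 under the 3 scalings, 45 without a filter, 58 with at least 10 counts, 2 with the block, 1204 with the average of the TCMO strains, 918 with DESeq2 (21.1% of them higher in CAR, against 47.8%) and 16 to 130 with a library left out. Depth was 4527847 to 11641130 counts, and whether depth or the number of larvae limits these tests was not compared.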
